A study of Mus musculus with 3 samples.

Results

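The genes described here are 8 transcription regulators of the immediate early and stress response, Fos, Fosb, Jun, Junb, Egr1, Egr2, Ier2 and Atf3, together with the Egr corepressors Nab1 and Nab2. They were chosen by name, with earlier results of these data known, as 10 of the 19057 genes measured. Each was read by 1 probe set annotated to that gene alone. Nab2 was included because it read lower in repeat 3, so its difference between repeats is given as a description with no test. The cells were R1, a line of mouse embryonic stem (ES) cells from strain 129, and total RNA of 3 biological repeats was read on Affymetrix Mouse Gene 1.0 ST arrays. The 3 arrays form 1 group with no treatment, genotype or time as a second condition. The labels do not describe culture medium, feeder cells or the time between feeding and harvest.

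Immediate early genes are transcribed within minutes of a growth factor or stress signal, without new protein synthesis, because the factors that switch them on, such as SRF, the Ets factors Elk1 and Elk4, and CREB, are already present in the cell. Fos and Jun proteins pair through leucine zippers to form AP-1, while Egr proteins bind GC-rich sites through zinc fingers. Nab1 and Nab2 bind Egr proteins and repress transcription at Egr target genes, and Nab2 is itself an Egr target, which makes a feedback loop. In mouse ES cells the main source of ERK signalling in culture is autocrine Fgf4.

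The stretches upstream of 5 members are shown because these genes carry the contrast described further on (Fos and Fosb against Nab1 and Nab2) or hold an SRF-type site (Egr2). Each is the 250 bases before a transcription start in RefSeq, build GRCm38.p6, written in the direction of the gene. Capitals mark matches to the CArG box (the SRF site), to the Egr motifs GCGGGGGCG and GCGTGGGCG, or to the TATA box motif TATAAA, each searched on both strands. The regions are chr12:85473640-85473889 (plus strand) for Fos, chr7:19310046-19310295 (minus) for Fosb, chr10:67537619-67537868 (plus) for Egr2, chr1:52500449-52500698 (minus) for Nab1 and chr10:127666704-127666953 (minus) for Nab2.
Fos: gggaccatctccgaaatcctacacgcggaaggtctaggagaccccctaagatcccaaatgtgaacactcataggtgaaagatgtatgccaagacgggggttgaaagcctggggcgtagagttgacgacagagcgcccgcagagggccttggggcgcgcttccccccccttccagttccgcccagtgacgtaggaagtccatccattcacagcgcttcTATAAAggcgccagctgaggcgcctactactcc
Fosb: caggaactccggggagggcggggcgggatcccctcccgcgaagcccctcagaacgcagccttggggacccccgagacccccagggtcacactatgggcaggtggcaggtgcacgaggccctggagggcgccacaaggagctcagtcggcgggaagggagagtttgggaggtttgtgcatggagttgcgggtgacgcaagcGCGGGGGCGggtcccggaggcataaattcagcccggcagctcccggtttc
Egr2: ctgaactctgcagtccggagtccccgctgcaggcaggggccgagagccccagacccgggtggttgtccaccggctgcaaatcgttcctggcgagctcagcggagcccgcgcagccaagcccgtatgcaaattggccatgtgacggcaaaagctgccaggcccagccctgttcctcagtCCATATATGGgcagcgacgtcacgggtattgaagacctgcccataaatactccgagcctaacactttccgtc
Nab1: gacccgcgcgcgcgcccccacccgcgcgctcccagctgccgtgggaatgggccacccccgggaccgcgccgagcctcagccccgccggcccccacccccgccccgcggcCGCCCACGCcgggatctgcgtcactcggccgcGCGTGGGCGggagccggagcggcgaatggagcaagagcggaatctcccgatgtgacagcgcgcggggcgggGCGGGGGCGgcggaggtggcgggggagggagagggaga
Nab2: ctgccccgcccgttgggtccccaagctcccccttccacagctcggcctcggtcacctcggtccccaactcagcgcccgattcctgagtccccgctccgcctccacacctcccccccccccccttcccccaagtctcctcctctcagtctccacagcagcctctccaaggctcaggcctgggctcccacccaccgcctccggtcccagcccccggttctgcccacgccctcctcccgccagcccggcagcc

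The Nab1 stretch held 3 Egr matches, beginning at positions -38, -109 and -141 from the start. Fosb held 1, beginning at -50. The Nab2, Fos and Egr2 stretches held no match to these Egr letters, which says only that the letters are not in these windows. Over all 32851 RefSeq windows of 300 bases (250 before to 50 after a start), 2.91% held GCGGGGGCG and 0.612% held GCGTGGGCG. A CArG box stood in 4 of the 5 Egr2 windows, against 1.63% of all windows; 3 of these 4 overlap and share the box shown, and the other, at a start further upstream, holds a different one. No other matched member held a CArG box in its window. The CRE motif TGACGTCA (1.79% of windows) and the AP-1 motif TGACTCA (5.20%) were in none of the 12 windows of the 8 members matched. Egr1 and Ier2 were not matched. These absences, that of a CArG box from Fos included, concern only the letters searched within these windows. Variant forms of the motifs and sites further upstream were not searched. The Ets core CCGGAA (14.9%) stood in 1 Egr2 window, and TATAAA (13.6%) stood in the windows of Fos and Junb. The Fos match lay before the start, at -33 to -28. The Junb match lay at 1 to 6, from the start onward and not upstream of it. A match is a string of letters and was not shown to be a bound site.

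All 10 members gave signal on all 3 arrays. Signal here means a log2 intensity above that of 95% of the smell and pheromone receptor genes (Olfr, Vmn1r and Vmn2r families) on the same array, a cutoff of 4.72, 4.60 and 4.60 in repeats 1, 2 and 3. Of 17875 genes outside those receptor families, 71.6% met this. Egr2 lay closest to the cutoff: at the 99th percentile of the receptor genes it passed on 1 array, and with other tissue-restricted families as background it passed on 0, while the other 9 members passed on all 3 arrays in both cases. Levels of different genes come from different probes and were not ranked against each other. All 11 measured ES cell markers were above background on every array, with mean log2 intensities from 8.63 to 12.56. So were 14 of 17 fibroblast markers, so passing this cutoff does not by itself tell cell types apart.

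**Figure D1:**
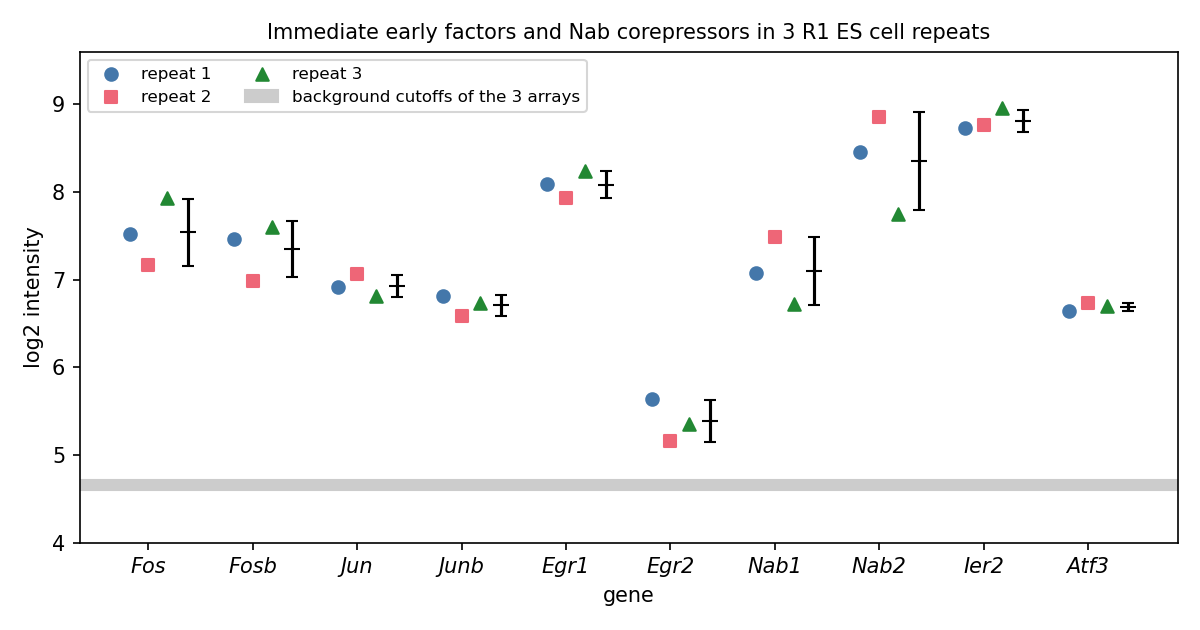
Log2 intensity of the 10 members (x axis) in repeats 1, 2 and 3 (circles, squares, triangles), with the mean and SD over the 3 repeats as a black bar beside them and the band of background cutoffs in grey. Repeat 2 is the lowest point for Fos, Fosb, Junb, Egr1 and Egr2, and the highest for Jun, Nab1, Nab2 and Atf3.

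Among the AP-1 members, Fos and Fosb had SDs of 0.38 and 0.32 over the repeats, and Jun and Junb of 0.13 and 0.12; the difference in spread was not tested. Fos, whose protein needs a Jun partner to bind DNA, read 7.52, 7.16 and 7.93 log2 units in repeats 1, 2 and 3 (mean 7.54 ± 0.38, SD, n = 3). Fosb, its close paralog, read 7.46, 6.99 and 7.59 (7.35 ± 0.32). Both were lowest in repeat 2 and highest in repeat 3, a gap of 1.70-fold for Fos and 1.52-fold for Fosb. Jun, which can also pair with itself, read 6.92, 7.06 and 6.81 (6.93 ± 0.13). Junb, a Jun paralog that is a weaker activator in many settings, read 6.82, 6.58 and 6.73 (6.71 ± 0.12). The Jun values ran in the opposite order to those of Fos, high in repeat 2 and low in repeat 3, over 1.19-fold, while Junb shared the low value of repeat 2. Atf3, a stress-induced factor of the ATF and CREB family that also pairs with Jun proteins, was the most even member, at 6.64, 6.73 and 6.70 (6.69 ± 0.046), and 14.87% of genes above background had a smaller SD.

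Egr1 had the same order of repeats as Fos at smaller amplitude, Egr2 had the order of Junb, and Ier2 had neither. Egr1, the zinc finger factor commonly used as a readout of ERK activity, read 8.09, 7.93 and 8.23 (8.08 ± 0.15, SD, n = 3). Egr2, known for its role in hindbrain patterning and myelination, read 5.63, 5.16 and 5.36 (5.38 ± 0.24), close to background as stated above. Both were lowest in repeat 2, by 1.24-fold against the highest repeat for Egr1 and 1.39-fold for Egr2, but Egr1 was highest in repeat 3 and Egr2 in repeat 1. Ier2, a small nuclear protein induced by serum, read 8.72, 8.76 and 8.96 (8.81 ± 0.13), so repeat 3 was the highest again and repeats 1 and 2 lay close together, with their order turned by quantile normalization.

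The Nab corepressors had the reverse order of repeats. Nab1 read 7.07, 7.49 and 6.72 (7.10 ± 0.38, SD, n = 3). Nab2 read 8.45, 8.85 and 7.75 (8.35 ± 0.56). Both were highest in repeat 2 and lowest in repeat 3, with repeat 1 between them. For Nab2 the intensities were 350.8, 462.7 and 214.7, and the difference of repeat 3 from the mean of the others was -0.91 log2 units (1.88-fold lower), the value for which it was picked. Nab1, which was not picked on this measure, spanned 1.70-fold between repeats 2 and 3. The protein-coding neighbours of Nab2 in the RefSeq gene table differed little between repeats 2 and 3: Stat6, a cytokine-activated factor, read 6.22, 6.37 and 6.44, and Nemp1, a nuclear envelope protein, read 7.77, 7.84 and 7.75, differences of 0.07 and -0.09. Nemp2, next to Nab1, read 5.86, 5.88 and 6.11, highest in repeat 3, where Nab1 was lowest.

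Set side by side, the members fell on both sides of the line between repeats 2 and 3. Fos and Fosb read 0.77 and 0.61 log2 units higher in repeat 3 than in repeat 2, and the same difference was -0.77 for Nab1 and -1.11 for Nab2. A difference beyond 0.5 was therefore seen upward in 2 of 10 members, against 0.818% of the 12841 genes above background on all 3 arrays. It was seen downward in 2 of 10, Nab2 among them by choice, against 2.12%. Because the 0.5 threshold and this pair of repeats were chosen after the values were seen, these counts are a description and no test. The remaining members lay between -0.25 (Jun) and 0.31 (Egr1). Repeat 2 was the lowest in 5 of 10 members (34.8% of genes above background) and the highest in 4 (36.9%). The order of repeats from high to low was 3, 1, 2 for Fos, Fosb and Egr1, an order held by 17.6% of genes above background, and 2, 1, 3 for Jun, Nab1 and Nab2, held by 19.1%, so the order alone is common. With repeat 1 in place of repeat 2, the differences of repeat 3 were 0.41 for Fos, 0.13 for Fosb, -0.35 for Nab1 and -0.71 for Nab2. Only Nab2 then lay beyond 0.5, which 0.319% of genes did downward and 0.428% upward, so the size of the contrast rests on repeat 2 for the others.

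**Figure D2:**
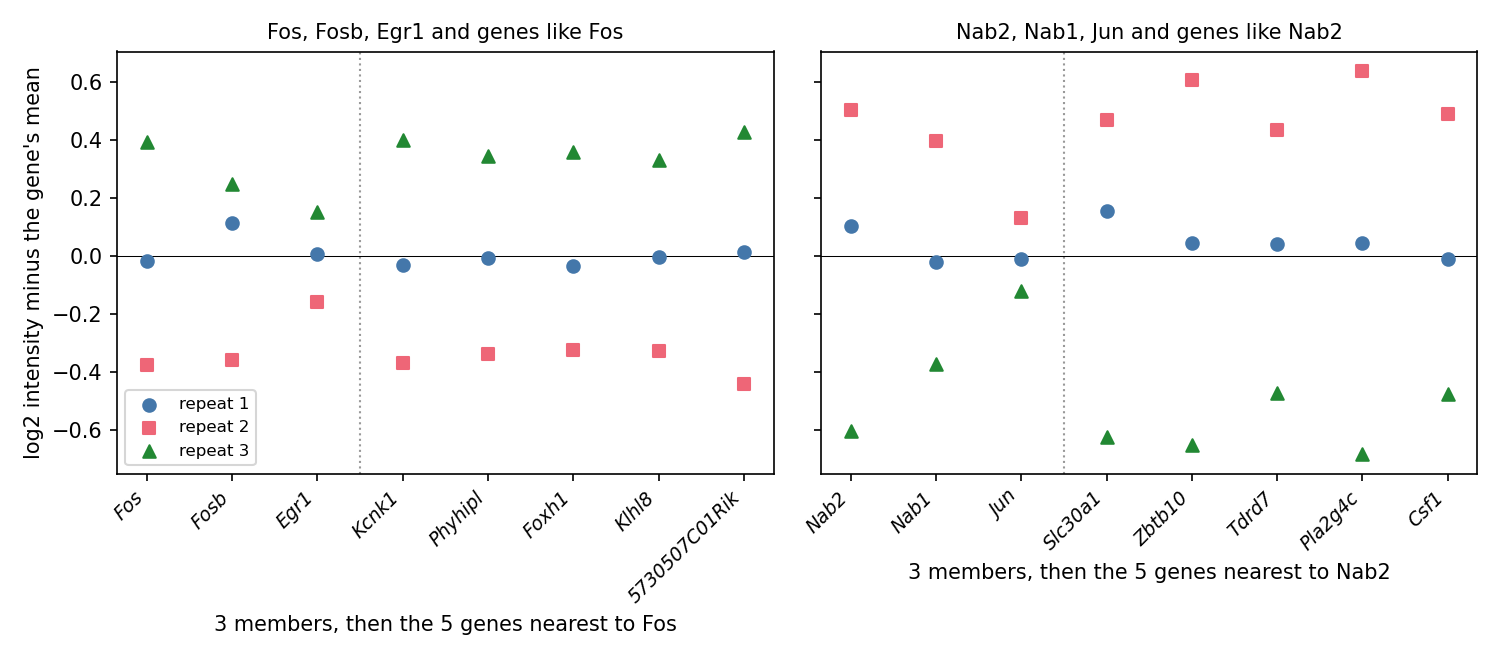
Log2 intensity minus the gene's mean over 3 repeats (y axis) for Fos, Fosb and Egr1 (left) and Nab2, Nab1 and Jun (right). After the dotted line come the 5 genes with values most similar to those of Fos (left) or Nab2 (right). Repeat 3 (triangles) is on top and repeat 2 (squares) at the bottom on the left, and the reverse holds on the right. The genes shown were chosen for these orders or for their likeness to Fos or Nab2.

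The spread of several members was wide for this series. The median SD of genes above background was 0.101 log2 units and the 90th percentile 0.209, which by construction 10% exceeded. Of the 9 members other than Nab2, 4 exceeded it: Fos, Fosb, Nab1 and Egr2. For Fos, 98.99% of genes above background had a smaller SD, and for Fosb 97.92%, while Nab1 had the same SD as Fos at 2 decimals. A limma variance test of each gene against the trend over 13610 genes gave an unadjusted p of 0.00268 for Fos, 0.0038 for Nab1 and 0.0102 for Fosb, so 3 of 9 members had an unadjusted p under 0.05, as did 5.75% of all genes tested. After Benjamini-Hochberg adjustment over all genes in limma's test none of the 9 passed 0.05, with adjusted p of 0.32, 0.372 and 0.532 for these 3 members, and 0.162% of all genes did. The differences between repeats in these 9 members therefore did not pass as larger than the spread of genes at their level. With 3 arrays, the number of arrays limits the precision.

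**Figure D3:**
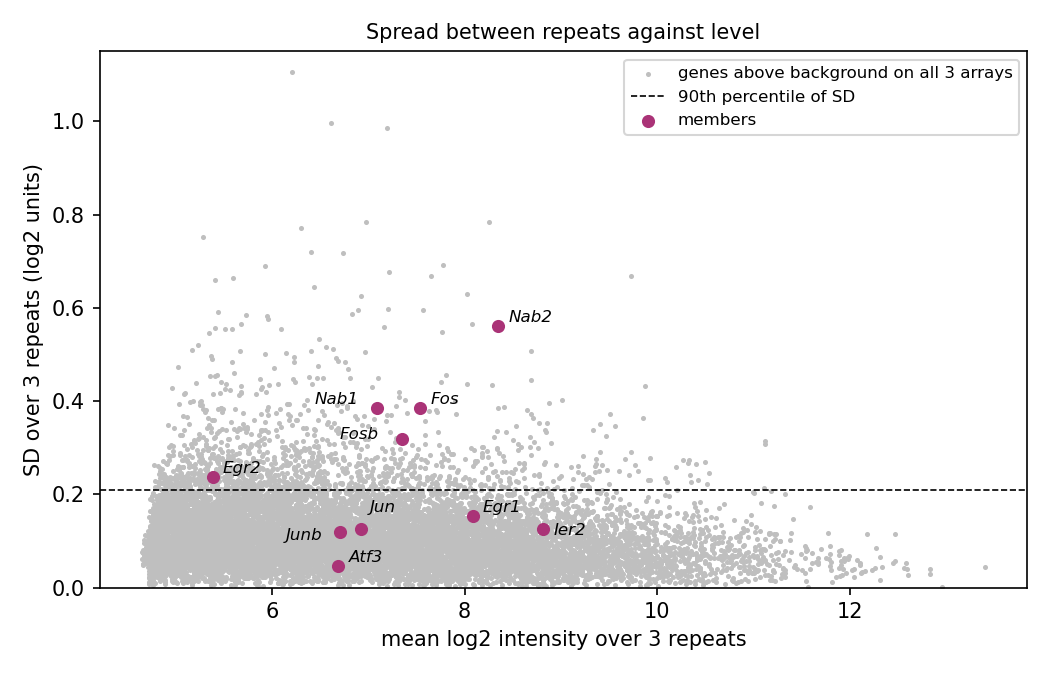
SD over 3 repeats (y axis, log2 units) against mean log2 intensity (x axis) for the 12841 genes above background on all 3 arrays (grey) and the 10 members (coloured, named). Nab2, Nab1, Fos, Fosb and Egr2 lie above the dashed 90th percentile at 0.209, and Atf3 lies at 0.046.

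The paralogs of the members had no SD of that size. All 11 listed AP-1 and Egr relatives gave signal (71.6% of genes outside the receptor families did). An SD above the 90th percentile (0.209), which 10% of genes exceed, was seen in 0 of them. Among the Fos relatives, Fosl1 (Fra-1) read 5.86, 5.99 and 6.13 and Fosl2 (Fra-2) read 6.40, 6.59 and 6.36 in repeats 1, 2 and 3. Neither repeated the low value of Fos in repeat 2. Jund, the Jun family member least dependent on stimulation, read 7.95, 7.76 and 7.92. Egr3 read 6.88, 6.96 and 6.83, and Egr4, with the widest spread of this list, read 6.22, 5.99 and 5.85 (6.02 ± 0.19). The zipper proteins Batf, Batf2, Batf3 and Jdp2 had SDs of 0.17, 0.088, 0.15 and 0.16. Their means of 5.37, 5.29, 5.48 and 5.44 lay close to background. The 99th percentile of the receptor genes was 5.48, 5.39 and 5.52 in repeats 1, 2 and 3. Atf2 and Atf7, partners of Jun at CRE-like sites, had SDs of 0.083 and 0.098. Between repeats 2 and 3 the 11 genes differed by -0.23 to 0.21, inside the range spanned by the members.

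Among the other immediate early genes, Btg2 and Gadd45g held the order of Fos. These are 2 of the 26 above background, and 17.6% of all genes above background held that order. Of 28 measured, 26 were above background on all 3 arrays, and 7 of these had an SD above the 90th percentile, which 10% of all genes exceed: Gadd45b, Ptgs2, Ccn2, Errfi1, Id3, Rhob and Nr4a1. All 7 were highest in repeat 2, where Fos and Fosb were lowest. Gadd45b, a stress sensor upstream of p38, read 7.78, 8.28 and 7.37 in repeats 1, 2 and 3, in the same order as Nab2. Ptgs2, the inducible cyclooxygenase, read 8.78, 9.01 and 8.28, and Ccn2, a matricellular protein regulated by SRF and YAP, read 8.77, 9.24 and 8.54. In the list 15 of 26 genes were highest in repeat 2 (36.9% of all genes above background) and 16 were lowest in repeat 3 (32.0% of all). The median difference of repeat 3 from repeat 2 was -0.19, against 0.001 over all genes, and 5 were lower by more than 0.5 (2.12% of all genes) while 0 were higher (0.818%). Against repeat 1 in place of repeat 2, 1 of the 26 was lower in repeat 3 by more than 0.5, namely Ptgs2, and 0 were higher. Only 4 of the 26 were lowest in repeat 2, as Fos was, against 34.8% of all genes above background. Among these 4 were the RNA-binding Zfp36 at 7.61, 7.29 and 7.61 and the antiproliferative Btg2 at 7.41, 7.31 and 7.53. None of the 26 passed limma's variance test (lowest adjusted p 0.159, Gadd45b), and 8 had an unadjusted p under 0.05 (5.75% of all genes tested).

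Of 25 listed kinases and factors of the path to SRF, Elk and CREB, 16 were measured and 9 were not analysed here. All 16 gave signal (71.6% of genes outside the receptor families did). Of the 16, 0 had an SD above the 90th percentile, which 10% of all genes exceed. Srf, the factor that binds the CArG box, had the widest spread of them, wider than that of 86.0% of genes, and read 8.36, 8.30 and 8.01, lowest in repeat 3. Elk4, its Ets partner, read 6.80, 6.73 and 6.48, also lowest in repeat 3, and Creb1 read 7.61, 7.48 and 7.81, lowest in repeat 2 and highest in repeat 3. The MEK genes Map2k1 and Map2k2, which phosphorylate ERK, had SDs of 0.076 and 0.11. These are transcript levels and say nothing of phosphorylation, through which this path works.

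Phosphatases of ERK and related kinases, listed with ERK feedback inhibitors, also held genes of both orders. Some of these genes are themselves induced by ERK. Of 15 measured, 15 gave signal (71.6% of genes outside the receptor families did). Of these, 5 had an SD above the 90th percentile, which 10% of all genes exceed: Dusp4, Dusp14, Dusp16, Spry4 and Spry1. Dusp4, a nuclear ERK phosphatase, read 6.79, 7.33 and 6.68, and Dusp14 read 6.80, 7.20 and 6.69, both highest in repeat 2. Dusp16, a JNK phosphatase, read 8.04, 7.92 and 7.52, lowest in repeat 3. Spry1 had the order of Fos, at 6.79, 6.59 and 7.02, and so did Dusp1, a classic immediate early phosphatase, at 9.95, 9.71 and 9.99. Between repeats 2 and 3, 3 of the 15 were lower in repeat 3 by more than 0.5 (2.12% of all genes) and 0 were higher (0.818%). None of the 15 passed limma's variance test, and 4 had an unadjusted p under 0.05 (5.75% of all genes tested).

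Nab proteins are known to repress through Chd4, a subunit of the NuRD complex. All 12 measured subunits gave signal (71.6% of genes outside the receptor families did), with Chd4 at 10.36, 10.31 and 10.45 and Chd3 at 6.36, 6.52 and 6.42. Their SDs ran from 0.029 to 0.14, with Mbd2 the widest (7.86, 8.13 and 7.92), followed by Mta1 (8.37, 8.52 and 8.61) and Mbd3 (8.84, 8.98 and 8.82). None of the 12 exceeded the 90th percentile of SD, which 10% of all genes exceed, and between repeats 2 and 3 they differed by -0.21 to 0.16.

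**Figure D4:**
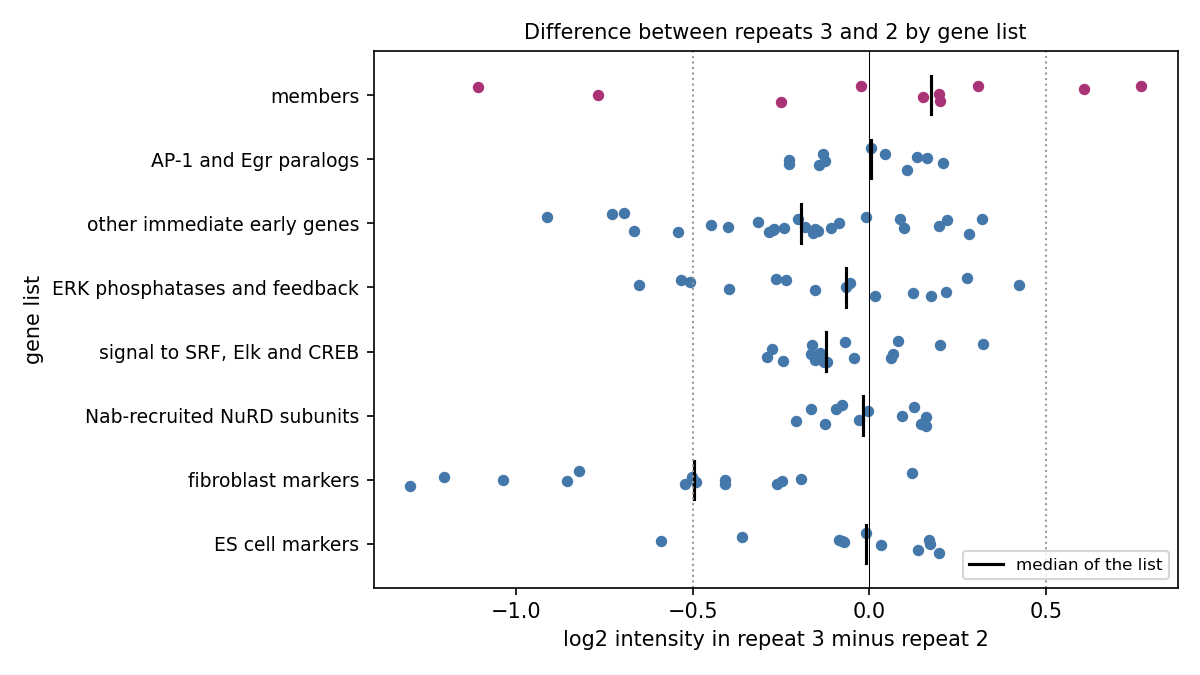
Difference in log2 intensity between repeats 3 and 2 (x axis) for each gene above background in 8 lists (y axis), with the list's median as a black line and dotted lines at -0.5 and 0.5. Members reach from -1.11 (Nab2) to 0.77 (Fos), and the medians are -0.19 for other immediate early genes and -0.50 for fibroblast markers.

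Markers of fibroblasts, the cells often used as feeders, also differed between repeats, mostly by a high value in repeat 2. Of 17 markers, all measured, 14 were above background on all 3 arrays, as were 71.6% of genes outside the receptor families. Of the 14, 12 were highest in repeat 2 (36.9% of all genes above background), with a median of -0.50 for repeat 3 minus repeat 2. Their lowest repeat was divided: 7 were lowest in repeat 1 and 7 in repeat 3 (32.0% of all), where Nab1 and Nab2 were lowest. Acta2 and Lox were among those lowest in repeat 1. The summed intensity of all 17 was 4200, 6414 and 4336 in repeats 1, 2 and 3. The 3 with the widest spread were Acta2 (7.57, 9.11 and 8.07), Lox (6.46, 7.88 and 6.58) and Thbs1 (9.40, 10.50 and 9.30). These 3 of the 14 passed limma's variance test (adjusted p = 0.00807, 0.0191 and 0.00807), as 0.162% of all genes did. The list was chosen with earlier results of these data known, so this count is a description and no independent finding. Dcn, at 8.06, 8.02 and 7.77, was highest in repeat 1. Pdgfra, at 6.20, 6.23 and 6.35, was highest in repeat 3. Lum and Fap were below background on all 3 arrays and S100a4 on 1. The part of these markers in the high values of Nab1, Nab2, Jun, Gadd45b, Ptgs2, Ccn2 and Dusp4 in repeat 2, or in the low values of Fos and Fosb there, was not tested. In RNA from whole cultures, fewer cells of a type and less RNA per cell cannot be told apart. Among markers of other lineages, 7 of 11 for primitive endoderm, 4 of 9 for neuroectoderm and 7 of 10 for trophoblast were above background on all 3 arrays. The share over genes outside the receptor families was 71.6%. Summed intensities of all measured markers in these 3 lists were 588.4 to 681.3, 500.3 to 523.3 and 681.0 to 771.4 over the repeats.

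The genes whose values over the 3 arrays most resembled those of Nab2 and Fos were found by the Euclidean distance between mean-centred log2 values, over 12840 other genes above background. Nearest to Nab2 were Slc30a1, a zinc exporter, at 8.23, 8.54 and 7.45 (distance 0.065), and Zbtb10, a zinc finger repressor, at 8.07, 8.63 and 7.37 (0.128). Tdrd7, Pla2g4c and Csf1 followed, at distances of 0.16, 0.168 and 0.171. Nab1 ranked 22 of 12840 by this measure and Jun 1183, while Fos ranked 12828, near the far end. Nearest to Fos were the potassium channel gene Kcnk1, at 6.75, 6.41 and 7.18 (distance 0.015), then Phyhipl, the Nodal pathway factor Foxh1 (6.65, 6.36 and 7.05), Klhl8 and 5730507C01Rik. Fosb ranked 52 and Egr1 494 in likeness to Fos, and Ier2 1544. Each such likeness rests on 3 arrays and is a description.

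All signs of the repeat 3 minus repeat 2 differences of the 10 members held under quantile normalization, median centring and a pseudocount of 16. Atf3, at -0.02, is too near 0 for its sign to carry meaning.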

How the data were processed

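The authors deposited 1 linear intensity per probe set and array. The submitters' processing notes name GCOS 1.4; background correction, normalization and summary method: not given in the sources used here. Array medians were 47.82, 46.71 and 46.76, so values were used as deposited after log2, with a floor of 1 that changed 0 values. Of 26730 probe sets, 20764 with 1 symbol in the platform annotation were kept and averaged per gene. Variance between repeats was tested with limma 3.58.1 in R 4.3.3: an intercept-only fit, the sample variance over a trended, robust prior, and F with 2 and 9.89 degrees of freedom, with Benjamini-Hochberg adjustment at 0.05 over the 13610 genes with signal on 1 or more arrays. The test was checked on simulated data. RefSeq tables (GRCm38.p6) gave promoter windows and neighbours. Named genes are the members, their paralogs, the 3 genes of each list with the largest SD, the 5 genes nearest to Nab2 and to Fos, and the neighbours of both Nab genes; others, the 0.5 threshold and the comparison of repeats 3 and 2 were chosen after their values were seen. Members and lists were chosen with earlier results of these data known. The alternatives were other background cutoffs, scalings, probe set choice, pseudocount and priors, and leaving out each repeat. Other steps used numpy 2.4.6 and pandas 2.3.3 in Python 3.11.15.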

Additional observations from a re-analysis of the deposited data

How the results depend on the processing

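The number of members above background was 10 at the main cutoff and 9 at each of the higher cutoffs, Egr2 being the one lost. Of the 9 members other than Nab2, 3 to 4 exceeded the 90th percentile of SD under every alternative run, and 0 passed limma's variance test under any of these. Nab2 in repeat 3 lay between -0.71 (without repeat 2) and -1.11 (without repeat 1) from the others, and without repeat 3 it has no value. All 66 alternatives for single members' differences moved them by less than 1 SD. Each member has 1 probe set, so the alternatives that took the highest probe set could not move a difference. The count of all genes called in the variance test, 22, was less stable: it was 6 at the 99th percentile, 5 with other silent families, 13 after quantile normalization, 42 after median centring, 10 without robust fitting and 1 without the trend, and 0 to 34 when 1 repeat was left out (0 without repeat 1, 34 without repeat 2, 12 without repeat 3). The higher cutoffs test fewer genes; the cause of the other shifts was not tested. With 1 group, no paired analysis was possible because there is no second group to pair. Signal over background limits Egr2 above all.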

Other observations

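Heat shock and chaperone genes, another set of stress-induced genes, were read beside the immediate early genes. All 10 measured were above background on all 3 arrays, 8 were highest in repeat 2 (36.9% of all genes above background) and all 10 read lower in repeat 3 than in repeat 2 (49.7% of all), with a median difference of -0.14 log2 units and a range from -0.40 to -0.0065. Hmox1, the oxidative stress gene for haem breakdown, had the widest spread, at 8.87, 9.21 and 8.81 in repeats 1, 2 and 3, and was the only one with an SD above the 90th percentile. Hspa1a, the inducible Hsp70 gene with a near-identical copy, read 6.06, 6.03 and 5.76. None of the 10 passed limma's variance test, and 2 had an unadjusted p under 0.05 (5.75% of all genes tested). Among ES cell markers Zfp42 (Rex1) was the widest, at 11.24, 11.34 and 10.75, lowest in repeat 3 as Nab2 was, and Nanog read 10.89, 11.24 and 10.88.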
